A study of Mus musculus with 3 samples.

Results

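The BCL2 family genes that decide between survival and mitochondrial cell death were followed in BCR-ABL p185 transformed B-lymphoid precursor lines. The 10 genes described are *Bcl2*, *Bcl2l1* and *Mcl1*, which are anti-apoptotic, *Bax* and *Bak1*, the pro-apoptotic effectors, and *Bcl2l11*, *Bbc3*, *Pmaip1*, *Bid* and *Bad*, the pro-apoptotic BH3-only genes. They were chosen by symbol and matched to the rows of the deposited count table, which lists 50686 genes, and all 10 were found. All 10 passed the filter of at least 10 counts over the 3 lines, which 13974 genes passed.

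Bone marrow cells of mice homozygous for CDK6-K43M, a kinase-inactive CDK6, were infected with a retrovirus that carries the oncogene BCR-ABL p185, and the B-lymphoid precursors that grew out were kept as stable lines in culture. Poly(A) RNA of 3 such *Cdk6*KM/KM lines was sequenced, and reads per gene were counted. The lines are called line 1, 2 and 3 after their replicate numbers. All of them carry the mutation and the oncogene, and none was treated. The sources used here do not say whether each came from a different mouse. Sources of the spread between lines, technical ones and different animals among them, could not be told apart. Wild-type and knockout lines were not analysed here, and no difference between genotypes was computed.

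The libraries held 21569845, 19633463 and 25773221 counts. A count of 0 allows up to 0.138, 0.152 and 0.118 CPM, which correspond to 3 counts. CPM are counts scaled to a common library size. Of 9 B lineage markers the summed level lay between 3578 and 3964 CPM. All 9 differed between lines by the chi-square test used below, as did 66.8% of all genes tested. *Rag1*, at 22.4, 91.4 and 32.4 CPM in lines 1, 2 and 3, and *Dntt*, at 0.967, 1.62 and 4.28 CPM, ranged most. Each of the other B lineage markers spanned at most 1.22-fold. Summed over its 5 markers, the T cell list did not exceed 0.353 CPM, with *Cd3e*, *Cd3g* and *Cd8a* at 3 counts or fewer in every line. The 5 myeloid markers summed to 1.75 to 3.93 CPM (*Itgam*, *Mpo* and *Elane* at 3 counts or fewer), and the 4 erythroid markers to 2.49 to 6.44 CPM, both highest in line 3. Their part in the values of line 3 was not tested. Among 5 markers of stroma and endothelium only *Pecam1*, which B-cell precursors can express as well, was above 3 counts, at 49.5, 80.2 and 99.7 CPM. *Cdk6* itself was at 449.5, 334.2 and 239.3 CPM in lines 1, 2 and 3, and read counts do not show the mutated base. On the log2 scale it deviated from the mean of the lines by 0.44, 0.02 and -0.46. The median of its 17 measured neighbours within 5 Mb deviated by 0.25, -0.06 and -0.21, so the difference was not particular to *Cdk6*. Its cause was not tested.

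Proteins of the BCL2 family meet at the outer mitochondrial membrane. BAX and BAK, once active, form pores through which cytochrome c leaves the mitochondrion and starts the caspase cascade, while BCL2, BCL-XL (from *Bcl2l1*) and MCL1 hold them in check by binding the BH3 helix of the death-promoting members in a groove. BH3-only proteins such as BIM (*Bcl2l11*), PUMA (*Bbc3*), NOXA (*Pmaip1*), BID and BAD occupy that groove or activate the effectors, and B-cell precursors are known to depend on MCL1 and on the level of BIM.

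The BH3 helix is the element that the family shares, so its coding sequence is shown for 9 members. Each stretch is 45 bases of the coding strand, 5′ to 3′, read from the Gencode M21 transcript with the longest coding sequence (mm10). Capitals mark the 6 codons that match the pattern leucine, any 2 residues, then isoleucine, valine, methionine or alanine, then glycine, alanine or serine, then aspartate, which occurred once in each of these 9 proteins.
Bcl2: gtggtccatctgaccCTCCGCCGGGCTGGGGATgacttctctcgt
Bcl2l1: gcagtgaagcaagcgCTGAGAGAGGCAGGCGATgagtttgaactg
Mcl1: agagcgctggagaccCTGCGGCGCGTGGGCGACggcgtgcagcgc
Bax: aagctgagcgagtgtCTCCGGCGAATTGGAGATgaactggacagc
Bak1: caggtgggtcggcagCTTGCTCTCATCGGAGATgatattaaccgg
Bcl2l11: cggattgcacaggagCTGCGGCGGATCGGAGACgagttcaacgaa
Bbc3: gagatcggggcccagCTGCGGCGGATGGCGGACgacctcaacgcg
Bid: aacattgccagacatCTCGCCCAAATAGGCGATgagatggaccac
Bad: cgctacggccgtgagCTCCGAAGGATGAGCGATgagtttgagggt

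These stretches lie at chr1:106712572-106712616 on the minus strand (*Bcl2*, exon 1), chr2:152829694-152829738 minus (*Bcl2l1*, exon 2), chr3:95659421-95659465 plus (*Mcl1*, exon 1), chr7:45465994-45466038 minus (*Bax*, exon 3) and chr17:27022528-27022572 minus (*Bak1*, exon 4). Those of the BH3-only genes lie at chr2:128147135-128147179 plus (*Bcl2l11*, exon 3), chr7:16313758-16313802 plus (*Bbc3*, exon 3), chr6:120897286-120897330 minus (*Bid*, exon 4) and chr19:6950777-6950821 plus (*Bad*, exon 3). Of the 18 core bases, 4 were the same in all 9 genes. *Bcl2l11* and *Bbc3* were the closest pair, with 15 of 18 core bases identical, and *Bcl2l1* and *Bak1* the most distant, with 7 of 18. The main transcripts of *Bcl2l1*, *Mcl1* and *Bbc3* shared no stretch of 50 bases, the read length, with another gene. Of the stretches of *Bad*, 33.5% were shared, of *Bid* 24.5%, of *Bak1* 18.2%, of *Bax* 17.6%, of *Bcl2* 6.75% and of *Bcl2l11* 0.221%, and reads from these could have been counted for another gene or lost.

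Levels of different genes were compared as CPM per kilobase of exon (CPM per kb), since longer transcripts give more reads. *Bak1* stood highest, at 72.3 ± 5.85 CPM per kb (mean ± SD, n = 3 lines, as in all values below), followed by *Mcl1* at 60.3 ± 1.56. *Bax* at 44.7 ± 8.09, *Bid* at 41.0 ± 7.71 and *Bcl2l1* at 32.1 ± 3.92 came next. The other 5 genes were at most 12.04 CPM per kb in every line. They were *Bcl2l11* at 9.94 ± 2.23, *Bad* at 8.39 ± 1.54, *Pmaip1* at 5.85 ± 2.01, *Bcl2* at 4.60 ± 1.92 and *Bbc3* at 1.73 ± 0.313 CPM per kb.

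Between neighbours in this order, the ranges over the lines did not overlap for *Bak1* above *Mcl1*, *Mcl1* above *Bax*, *Bcl2l1* above *Bcl2l11* and *Bcl2* above *Bbc3*. They overlapped for *Bax* and *Bid*, *Bid* and *Bcl2l1*, *Bcl2l11* and *Bad*, *Bad* and *Pmaip1*, and *Pmaip1* and *Bcl2*, so these neighbours could not be ordered by their ranges. Line by line, *Bad* was above *Pmaip1* in 3 of 3 lines, and each of the other overlapping neighbours was above the next in 2 of 3. The upper ranks depended on the length used. With the length of the main transcript in place of all exons of the gene, *Bax* came first at 81.3 ± 14.7 CPM per kb, before *Bak1* at 72.9 ± 5.90, and *Mcl1* at 60.28 ± 1.56 came after *Bid* at 60.3 ± 11.3.

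**Figure D1:**
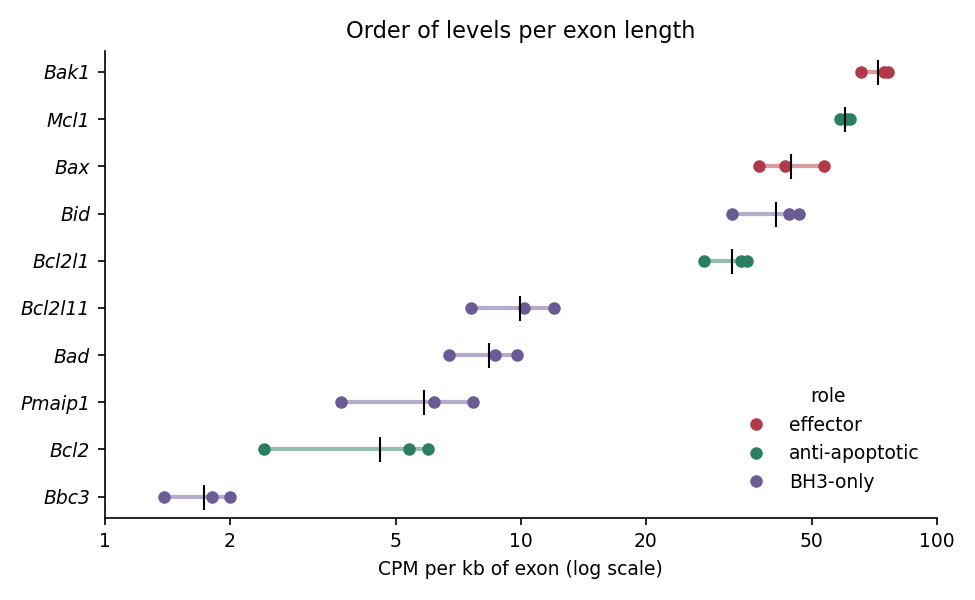
Levels of the 10 genes in CPM per kb of exon, on a log axis, ordered by their mean. Points are the 3 lines, vertical ticks their mean and colours the roles. *Bak1*, *Mcl1*, *Bax*, *Bid* and *Bcl2l1* lie at 27.6 CPM per kb or more in every line and the other 5 genes at 12.04 or less.

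Between lines, 8 of the 10 genes differed by more than counting noise, by a chi-square test of homogeneity with Benjamini-Hochberg adjustment over all genes kept, at 0.05. The background was high: 66.8% of the 13974 genes tested differed between lines, and the count of 8 is to be read against that share. In bulk RNA, fewer cells with a transcript and less of it per cell cannot be told apart. *Mcl1* and *Bbc3* did not pass. A range of at least 1.5-fold between the highest and the lowest line was seen in 3 members, *Bcl2*, *Pmaip1* and *Bcl2l11*, and in 25.9% of the 10351 genes that reach 1 CPM in every line, which is near the share of the members. It fell to 1 without line 2 (*Bcl2*) and to 1 without line 3 (*Pmaip1*). The median SD of log2(CPM + 1) over lines was 0.26 for the members and 0.16 for those 10351 genes. Over lines 1 and 2 alone it came to 0.14 for the members, for which the 3-line value of 0.16 is no background.

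**Figure D2:**
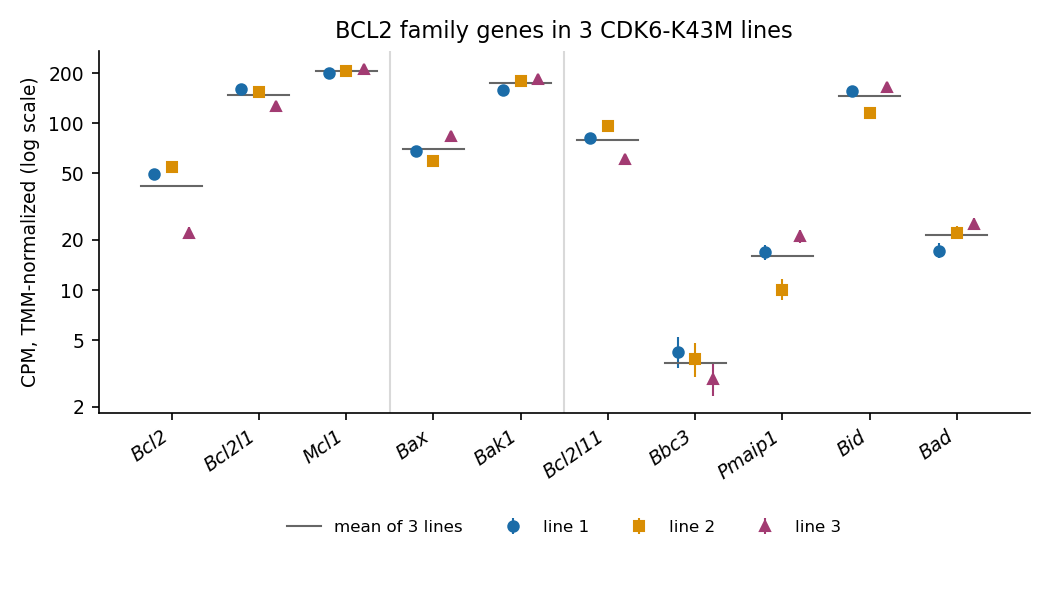
Normalized counts (CPM, log axis) of each gene in lines 1, 2 and 3, with exact 95% Poisson intervals of the counts and a horizontal bar at the mean. Grey lines separate anti-apoptotic genes, effectors and BH3-only genes. *Bcl2* in line 3, at 22.1 CPM, lies far below lines 1 and 2, while the 3 values of *Mcl1* nearly coincide.

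The anti-apoptotic genes held the widest and the narrowest range among the 10 members. *Bcl2*, the founding survival gene, was at 49.3, 54.9 and 22.1 CPM in lines 1, 2 and 3, a 2.49-fold range (1071, 1083 and 562 counts). Line 2 was highest, line 1 close below it and line 3 far lowest. Line 3 differed from the mean of the other lines by -1.20 on the log2 scale. Its SD of log2(CPM + 1) was 0.70, and 95.1% of these 10351 genes had a lower SD. *Bcl2* (ENSMUSG00000057329.7) spans chr1:106538178-106714274 on the minus strand, and 6.09% of its exon bases overlap an antisense gene, *D630008O14Rik*.

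*Bcl2l1*, which encodes BCL-XL, was at 160.2, 154.9 and 126.8 CPM, a 1.26-fold range that also ended with line 3 at the bottom (ENSMUSG00000007659.18, chr2:152780668-152831728, minus strand). *Mcl1*, whose short-lived protein is held by continued synthesis, was at 200.4, 206.7 and 211.0 CPM (ENSMUSG00000038612.16, chr3:95658788-95663176, plus strand). These values span 1.05-fold and did not differ beyond counting noise at the threshold (chi-square test, Benjamini-Hochberg adjusted p = 0.0594 over 13974 genes). Without the filter, with normalized library sizes recomputed and every gene with a count tested, *Mcl1* passed. Its SD of log2(CPM + 1) was 0.04, and 5.56% of the 10351 genes had a lower one. Per kb of all exons, *Mcl1* was the highest of the 3 anti-apoptotic genes in each line, and the ratio of *Mcl1* to *Bcl2* on this scale was 10.9, 10.1 and 25.6.

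Both effectors differed between lines and were highest in line 3. *Bax* was at 68.1, 59.0 and 84.2 CPM, a 1.43-fold range with line 2 lowest (ENSMUSG00000003873.11, chr7:45461697-45466898, minus strand). *Bak1* was at 158.0, 180.0 and 184.2 CPM, a 1.17-fold range with line 1 lowest (ENSMUSG00000057789.13, chr17:27019810-27029009, minus strand). Per kb, the lowest line of *Bak1*, at 65.6, was above the highest of *Bax*, at 53.4. Some of their exons are shared with other genes: 12.2% of the exon bases of *Bax* overlap *Gm45808* on the same strand, and 18.2% and 7.35% of those of *Bak1* overlap 2 gene entries named *Ggnbp1* on the opposite strand. Reads there could have been counted for either gene or for none, since the strand setting is not given in the sources used here.

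Of the BH3-only genes, *Bcl2l11* and *Bid* were well covered and were at opposite ends in line 3. *Bcl2l11*, which encodes BIM, an activator that all 3 survival proteins bind, was at 81.9, 96.7 and 61.0 CPM, a 1.59-fold range with line 2 highest and line 3 lowest (ENSMUSG00000027381.16, chr2:128126038-128162547, plus strand). *Bid*, whose protein is cleaved by caspase-8 to link death receptors to mitochondria, was at 156.8, 114.5 and 165.8 CPM, a 1.45-fold range with line 2 lowest (ENSMUSG00000004446.12, chr6:120891930-120916853, minus strand). Its exons overlap *Bcl2l13* on the opposite strand over 17.7% of their bases.

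*Pmaip1*, encoding NOXA, which binds MCL1 and is a target of p53, was at 16.9, 10.1 and 20.96 CPM, a 2.08-fold range (ENSMUSG00000024521.7, chr18:66458533-66465565, plus strand). Line 2 was lowest and line 3 highest, and the 95% intervals of the 3 lines, 15.2 to 18.7, 8.73 to 11.6 and 19.2 to 22.8 CPM, did not overlap. *Bad*, whose protein is held inactive by survival kinases and binds BCL2 and BCL-XL, was at 17.2, 22.1 and 25.0 CPM, a 1.45-fold range with line 1 lowest (ENSMUSG00000024959.13, chr19:6941861-6951899, plus strand). Exons of *Gpr137* on the opposite strand overlap 20.5% of its exon bases.

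*Bbc3*, encoding PUMA, another p53 target, had the lowest level of the 10 members per kb and was at 4.24, 3.85 and 2.94 CPM (ENSMUSG00000002083.13, chr7:16308393-16318205, plus strand). These values rest on 92, 76 and 75 counts, and their 95% intervals, 3.42 to 5.20, 3.03 to 4.82 and 2.32 to 3.69 CPM, overlapped. The difference between lines did not pass the test (chi-square test, Benjamini-Hochberg adjusted p = 0.0799 over 13974 genes), and without line 2 it did. With all 3 lines tested together, its 1.44-fold range could not be told from counting noise at the threshold. Lines 1 and 3, which hold the ends of that range, did differ when tested alone.

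By line, 6 members were highest and 4 lowest in line 3, so that no member lay in the middle there. Highest in line 3 were *Mcl1*, *Bax*, *Bak1*, *Pmaip1*, *Bid* and *Bad*, that is 1 of 3 anti-apoptotic and 5 of 7 pro-apoptotic genes. Lowest in line 3 were *Bcl2*, *Bcl2l1*, *Bcl2l11* and *Bbc3*. Of the 10351 genes used for spreads, 36.9% were highest and 35.6% lowest in line 3.

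The balance of the family was described by summed levels. Anti-apoptotic genes summed to 99.0, 100.3 and 91.8 CPM per kb in lines 1, 2 and 3, effectors to 108.9, 112.2 and 129.9, and BH3-only genes to 69.3, 58.5 and 73.1. As shares of all 10 genes, the anti-apoptotic genes made up 34.6% ± 3.09, the effectors 41.6% ± 2.39 and the BH3-only genes 23.8% ± 1.92. Anti-apoptotic genes had their smallest share in line 3, 31.1%, and effectors their largest there, 44.1%.

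The ratio of the anti-apoptotic to the pro-apoptotic sum was 0.556, 0.587 and 0.452, a mean of -0.92 ± 0.20 on the log2 scale. It was below 1 in every line and lowest in line 3. Against effectors alone the ratio was 0.909, 0.893 and 0.706, and against BH3-only genes 1.43, 1.71 and 1.25. These ratios compare RNA levels, with 3 genes above the line and 7 below it. Taken as the mean of log2 levels over the genes of each role, the difference turned to 0.54 ± 0.37, with 0.67, 0.83 and 0.12 in lines 1, 2 and 3, an average in which low genes count as much as high ones. Without length scaling the summed ratio was -0.37 ± 0.20 on the log2 scale. The log2 ratio against effectors alone then turned positive, at 0.86, 0.80 and 0.42 in lines 1, 2 and 3. Line 3 had the lowest value on each of these scales.

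**Figure D3:**
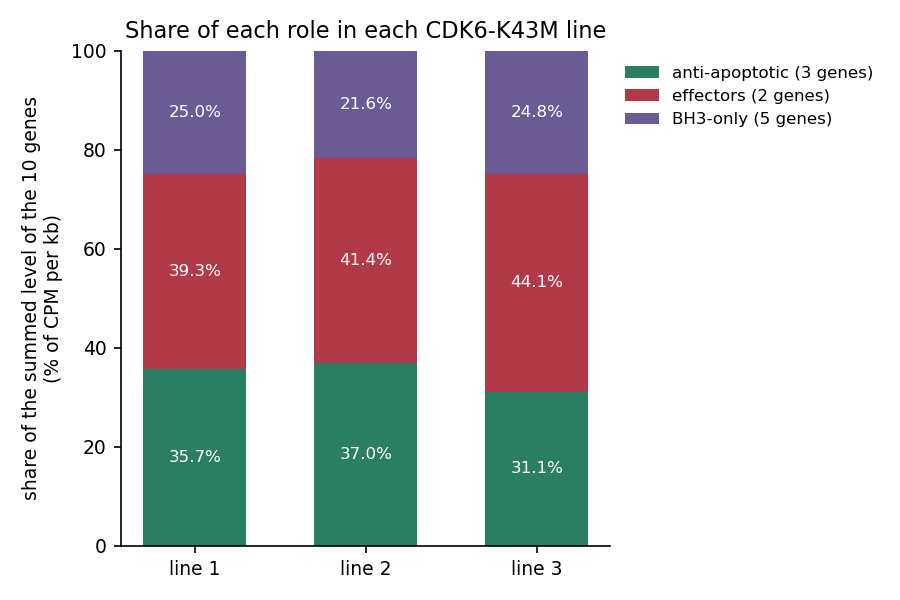
Shares of the summed CPM per kb of all 10 genes held by anti-apoptotic genes, effectors and BH3-only genes in each line, in percent. The anti-apoptotic share was 35.7%, 37.0% and 31.1% in lines 1, 2 and 3, and the effector share 39.3%, 41.4% and 44.1%.

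Ratios of single pairs are given as examples, in CPM per kb, and were picked after their values were seen. *Bcl2* over *Bax* was 0.125, 0.160 and 0.0451, a 3.55-fold range with line 3 lowest. For *Bcl2* over *Bcl2l11* the values were 0.528, 0.498 and 0.317, and for *Mcl1* over *Bcl2l11* 5.75, 5.02 and 8.13. *Mcl1* over *Pmaip1* was 9.50, 16.4 and 8.05, highest in line 2, where *Pmaip1* was lowest. *Bcl2l1* over *Bad* was 5.19, 3.90 and 2.83. *Bcl2* over either death gene was lowest in line 3, while *Mcl1* over *Bcl2l11* was highest there.

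**Figure D4:**
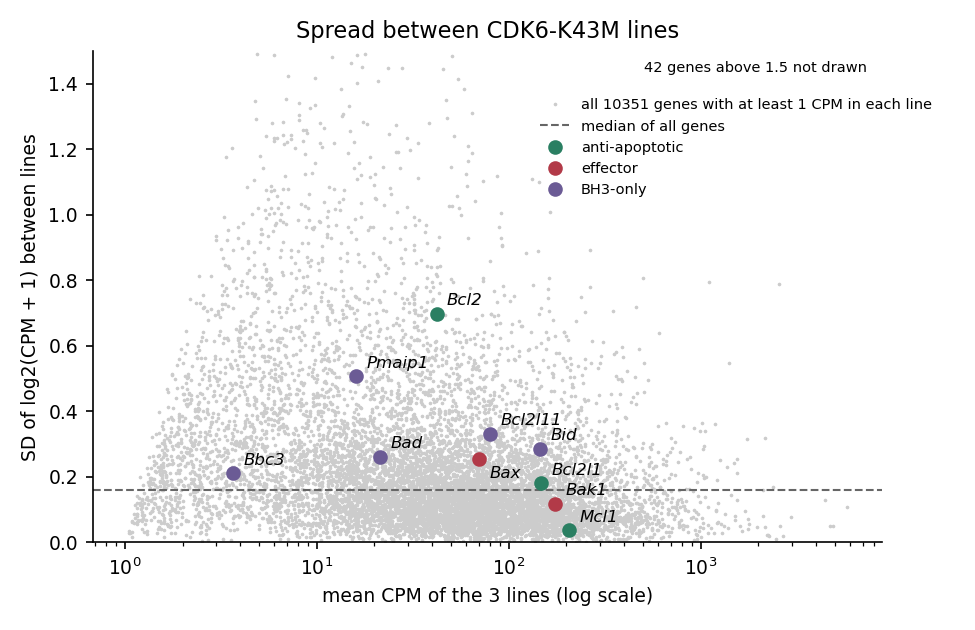
SD of log2(CPM + 1) between the 3 lines against the mean CPM (log axis) of the 10351 genes that reach 1 CPM in every line, with the 10 members marked and SDs above 1.5 not drawn. *Bcl2* at 0.70 and *Pmaip1* at 0.51 lie above most genes, *Mcl1* at 0.04 below most, and the dashed line marks the median of all genes, 0.16.

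The promoters of *Bcl2* and *Mcl1* are shown because these genes had the widest and the narrowest spread between lines among the 10 members. They run from 250 bases before to 50 bases after the RefSeq start (GRCm38.p6), at chr1:106714241-106714540 on the minus strand and chr3:95658471-95658770 on the plus strand. Capitals mark the GC box GGGCGG, the letters CCAAT and the ETS core CCGGAA on either strand.
Bcl2: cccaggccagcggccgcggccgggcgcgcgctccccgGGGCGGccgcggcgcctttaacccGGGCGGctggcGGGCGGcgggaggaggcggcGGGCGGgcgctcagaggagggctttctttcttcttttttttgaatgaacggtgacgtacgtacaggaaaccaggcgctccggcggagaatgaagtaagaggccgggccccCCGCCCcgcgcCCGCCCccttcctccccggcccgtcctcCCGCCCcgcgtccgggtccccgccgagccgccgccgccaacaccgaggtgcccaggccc
Mcl1: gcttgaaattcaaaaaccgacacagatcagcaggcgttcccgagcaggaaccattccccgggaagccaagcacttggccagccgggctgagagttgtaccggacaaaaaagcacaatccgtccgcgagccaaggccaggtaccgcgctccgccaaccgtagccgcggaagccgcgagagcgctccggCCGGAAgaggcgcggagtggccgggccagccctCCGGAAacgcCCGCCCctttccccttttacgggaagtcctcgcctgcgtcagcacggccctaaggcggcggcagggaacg

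The *Bcl2* promoter is 76.0% G and C and holds 7 GC boxes and no match to the other letters. That of *Mcl1* is 65.7% G and C, with 1 GC box and 2 ETS cores. Over 15 RefSeq promoters of 9 members, counted on both strands, 10 held GGGCGG, against 35.7% of 32851 promoters of the same length, and 5 held CCGGAA, against 14.9%. The letters CCAAT were in 4 (37.4% of all), the E-box CACGTG in 2 (7.15% of all) and TATAAA in 0 (13.6% of all). Some members gave several of the 15 promoters, and 2 of those of *Bbc3* overlap, so the 15 are not independent. The background was not matched for G and C content, and no enrichment was tested. A match is a description of letters and was not tied to binding.

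Genes near the members were examined because stretches of chromosomes can shift together between lines. Within 5 Mb on either side, the median neighbour deviated from the mean of the lines by at most 0.03 to 0.08 on the log2 scale, depending on the member. *Bcl2* deviated by 0.33, 0.48 and -0.80 in lines 1, 2 and 3, and the median of its 9 measured neighbours by 0.08, -0.07 and -0.05. A median over many genes lies nearer to 0 than a single gene does, so the 2 values are given side by side only.

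**Figure D5:**
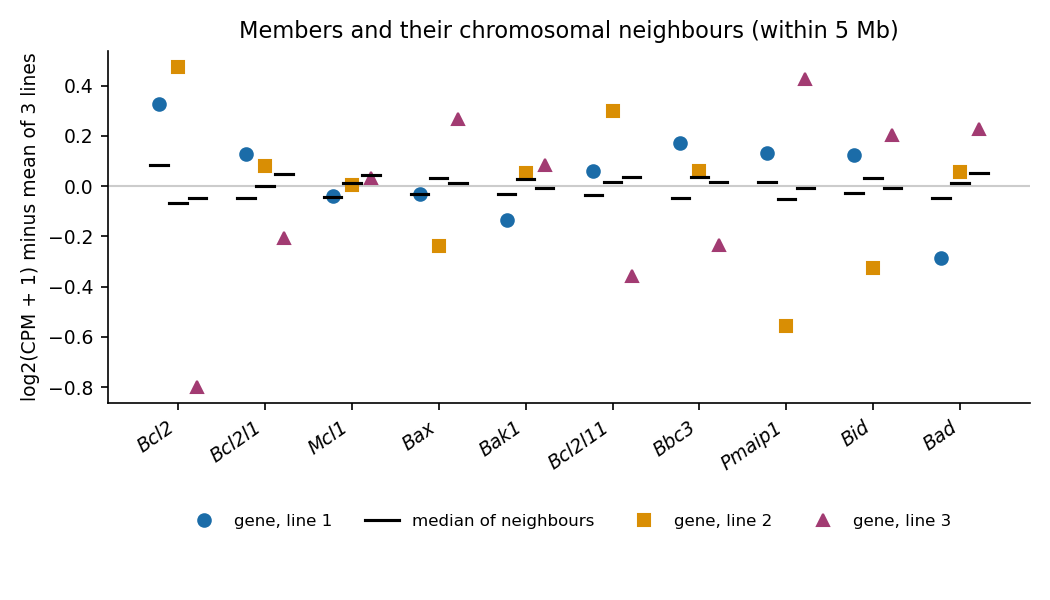
Deviation from the mean of the 3 lines, on the log2 scale, of each member and of the median gene within 5 Mb of it, by line. The neighbour medians lie within 0.08 of 0, and *Bcl2* in line 3 lies at -0.80.

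Other genes of the mitochondrial pathway were taken from 8 lists with 43 genes. Of these, 36 passed the count filter, 31 of the 36 differed between lines by the same chi-square test (66.8% of all genes tested) and 9 had a range of at least 1.5-fold (25.9% of the genes that reach 1 CPM in every line). The counts per list below are to be read against these shares. Their median SD of log2(CPM + 1), 0.17, was close to that of all genes, 0.16. Of 5 further anti-apoptotic genes, *Bcl2a1a*, *Bcl2a1b*, *Bcl2a1d* and *Bcl2l10* had 3 counts or fewer in every line. *Bcl2l2*, encoding BCL-W, was at 31.7, 26.3 and 25.8 CPM, with a mean of 6.26 ± 0.734 CPM per kb. The Bcl2a1 copies share 69.0% to 79.5% of their 50-base stretches with other genes, so reads from them could have been lost in counting.

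Of 6 further genes with a BH3 or related domain, *Bik* and *Hrk* had 3 counts or fewer and 3 of the 4 that were tested differed between lines. *Bok*, an effector relative, was at 46.3, 16.9 and 27.6 CPM, a 2.75-fold range with line 2 lowest. *Bnip3*, linked to mitophagy, was highest of these per kb at 24.8 ± 5.37, and *Bmf* lowest at 1.14 ± 0.108 CPM per kb. Other genes share 62.4% of the 50-base stretches of *Bnip3*, so its level is uncertain. Of 4 BCL2-related genes, *Bcl2l14* had 3 counts or fewer and the other 3 differed, with *Bcl2l13* highest at 12.3 ± 1.12 and *Bcl2l15* lowest at 4.22 ± 1.92 CPM per kb. *Bcl2l15* was also the widest, at 14.9, 5.47 and 14.0 CPM, and 66.6% of its 50-base stretches are shared with other genes.

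Downstream of the pores, 9 of 10 apoptosome and caspase genes differed and 3 had a range of at least 1.5-fold, beside 66.8% and 25.9% in the background. *Htra2*, a mitochondrial protease that inhibits IAP proteins, was highest at 38.6 ± 2.77 CPM per kb. *Casp6*, an executioner caspase, was lowest per kb, at 0.987 ± 0.616, and stood at 2.44, 4.86 and 9.23 CPM in lines 1, 2 and 3, a 3.78-fold range with line 3 highest. All 5 IAP genes differed but none by 1.5-fold, with *Birc5*, the mitotic survivin, highest at 47.1 ± 2.51, *Birc3* lowest at 7.41 ± 0.874 CPM per kb and *Xiap* widest at 94.5, 118.3 and 90.3 CPM. Of the 3 VDAC channel genes, 2 differed. *Vdac1* was at 141 ± 6.37, *Vdac2*, the widest of them, at 57.1 ± 3.38 and *Vdac3* at 6.58 ± 0.240 CPM per kb.

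Genes that act on members were also listed. Of 3 genes of MCL1 turnover, 2 differed. *Huwe1*, a ubiquitin ligase of MCL1, was at 802.3, 945.2 and 1320 CPM, highest in line 3, where *Mcl1* RNA was within 1.05-fold of the other lines. Its neighbours on the X chromosome shifted with it, with a median deviation of 0.51 (log2) in line 3. *Fbxw7* was lowest of the list at 5.40 ± 0.156 CPM per kb. Of 7 transcription factors that act on members, 6 differed. *Trp53*, which encodes p53, was at 188.1, 243.0 and 292.4 CPM, a 1.55-fold range with line 3 highest. *Pmaip1* and *Bax*, known p53 targets, were highest in line 3 and lowest in line 2. *Bbc3*, another target, which did not pass the test, was at its lowest value in line 3. Of all 10 members, 6 were highest in line 3, and no link of *Trp53* RNA to any member was tested. Among the 7 transcription factors, *Myc* was highest at 236 ± 30.3 and *Ddit3* lowest at 5.13 ± 0.478 CPM per kb.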

How the data were processed

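Data of 3 BCR-ABL p185 *Cdk6*KM/KM lines were analysed. Per the labels, libraries were made with a SENSE mRNA-Seq kit and read as 50 bases from 1 end, while the study's methods name a TruSeq kit, so it is not known whether the libraries keep strand. The authors trimmed reads with Trimmomatic, mapped them with STAR (mm10) and assigned them to Gencode M13 exons with featureCounts, and the deposited values are raw counts per gene. The strand setting and the treatment of reads with several matches are not given in the sources used here. The table holds 6 other columns, which were not used, and 0 rows that name no gene.

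Of 50686 gene identifiers, 50462 matched Gencode M21, which gave symbols, coordinates and exon lengths. Counts were normalized to CPM with edgeR 4.0.16 (TMM, R 4.3.3), and genes with fewer than 10 counts in total were dropped. A chi-square test of homogeneity compared each gene's counts with the normalized library sizes over 13974 genes (scipy 1.17.1, Benjamini-Hochberg, 0.05). With 1 group, edgeR's quasi-likelihood test has no contrast, and the test used compares libraries with counting noise, not conditions. Its p-values concern only these samples. They measure departure from counting noise, and depend on the number of counts as well as on the size of the spread. Poisson intervals (exact, 95%) and limits for counts of 0 cover counting error only. Pairs of libraries differed at 6102 to 7319 genes, so none was a copy. SDs used log2(CPM + 1).

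Named genes were all 10 members, and in each list the genes with the highest and lowest CPM per kb, the widest range and every gene with 3 counts or fewer. A gene that this rule names is not reported here. Members and lists were chosen with earlier results of these data known. Alternatives were other size factors (DESeq2 1.42.0), other filters, lengths, pseudocounts and averages, and leaving out each line.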

Additional observations from a re-analysis of the deposited data

How the results depend on the processing

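With DESeq2 size factors or library size alone, the 10 mean levels moved by less than 1 SD, 8 members differed and 3 had a range of at least 1.5-fold, as before, and 30 listed genes differed, against 31. Ratios within a line do not depend on the size factor. The anti- to pro-apoptotic ratio, -0.92 on the log2 scale, reversed to 0.54 with the mean of log2 values and moved to -0.37 without length scaling. Against effectors alone, the mean log2 ratio reversed from -0.27 to 0.69 without length scaling. The order of levels kept 6 of 10 ranks with the length of the main transcript and 2 of 10 without length scaling. When each line was left out in turn, 1 to 3 members had a range of at least 1.5-fold (1 without line 2 and 1 without line 3). The median SD of the members over the remaining lines ran from 0.14 (without line 3) to 0.28. The anti- to pro-apoptotic ratio ran from -0.997 to -0.808 on the log2 scale, and 8 to 10 ranks were kept. Between the remaining lines, 6 to 8 members and 24 to 25 listed genes differed. The share of 66.8% belongs to the test of all 3 lines. With the size factors of all 3 lines, lines 1 and 2 differed at 6102 of 13909 genes. Lines 1 and 3 differed at 7319 of 13955 genes, and lines 2 and 3 at 7245 of 13974. Without line 1, *Bak1* and *Bad* no longer differed. Without line 2, *Bid* was lost and *Bbc3* gained, and without line 3 *Bcl2l1* was lost. The cause was not tested. No filter on low counts added *Mcl1*, for 9 members. A window of 2 Mb in place of 5 Mb, chosen after seeing the data, gave a median largest neighbour shift of 0.05, against 0.04. No paired analysis was possible because all 3 lines belong to 1 group. Depth limits *Bbc3* most, with 75 to 92 counts per line.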
